A study of Homo sapiens with 4 samples.

Results

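The neutrophil-attracting CXCL chemokines are described here in human proximal tubular cells (HPTCs) under IL-1β and the SGLT2 inhibitor empagliflozin (Empa). The genes CXCL1, CXCL2, CXCL3, CXCL5, CXCL6 and CXCL8 were taken by name, and every non-control array probe whose gene name equals one of them was read, which gave 6 of the 25992 gene names on the array and 8 of its 34127 probes. The genes were picked with their values on these arrays known, so their levels and the differences between arrays are a description. HK-2 is an HPTC line immortalised with papillomavirus E6 and E7, RPTEC/TERT1 is one that forced expression of the telomerase subunit TERT made immortal, and each is a single established line. Cells of both lines were kept without serum and supplements for 24 h and then received IL-1β at 10 ng/mL together with Empa at 500 nM for 24 h. The labels give replicates 1 and 2 of HK-2, called H1 and H2 below, and replicates 1 and 2 of RPTEC/TERT1, called R1 and R2, with 1 array each (4 in all), which the methods call biological duplicates. All 4 arrays carry the same treatment, and arrays of unstimulated cells or of cells given only IL-1β were not analysed here. No value below can be read as an effect of IL-1β or of Empa.

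CXC chemokines are small secreted proteins that steer leukocytes along a gradient. The members described here carry the glutamate-leucine-arginine motif ahead of their first cysteines, which lets them bind the neutrophil receptor CXCR2, and CXCL6 and CXCL8 bind CXCR1 as well. IL-1β drives their transcription through its receptor, the adaptor MYD88, the IRAK kinases and the transcription factor NF-κB, and in the kidney the tubular epithelium is a known source of them during inflammation. Their genes form a cluster on chromosome 4. On the array, 355 kb separate the outermost of the 8 probes, from 74609265 to 74964401 of GRCh37, the build that the file headers name. Probes of 12 gene names start inside that span, and 6 of these are the chemokines described here. PF4, PF4V1 and PPBP, which are CXC ligands too, also lie inside it.

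The sequence just ahead of each start site is shown because these 6 genes share a letter-for-letter NF-κB type motif there. RefSeq promoters of GRCh38.p14 (250 bases before to 50 after the start site) were found for all 6. Each line gives bases -110 to -31 from the start site, read 5′ to 3′ on the strand of the gene, and capitals mark the motif GGAATTTCC.
CXCL8, chr4:73740459-73740538, plus strand: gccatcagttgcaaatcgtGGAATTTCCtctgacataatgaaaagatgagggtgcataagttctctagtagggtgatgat
CXCL6, chr4:73836568-73836647, plus strand: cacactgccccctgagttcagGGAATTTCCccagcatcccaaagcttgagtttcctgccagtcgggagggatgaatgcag
CXCL1, chr4:73869283-73869362, plus strand: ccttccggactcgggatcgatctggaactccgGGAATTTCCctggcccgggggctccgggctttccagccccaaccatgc
CXCL5, chr4:73998708-73998787, minus strand: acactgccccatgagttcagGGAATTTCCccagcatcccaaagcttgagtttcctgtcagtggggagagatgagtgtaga
CXCL3, chr4:74038720-74038799, minus strand: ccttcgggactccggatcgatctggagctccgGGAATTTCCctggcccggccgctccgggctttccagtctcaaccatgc
CXCL2, chr4:74099226-74099305, minus strand: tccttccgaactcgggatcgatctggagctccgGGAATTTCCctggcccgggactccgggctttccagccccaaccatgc
The motif was chosen after these promoters had been read. Searched on both strands, GGAATTTCC was in 162 of 35116 RefSeq promoters (0.461%) and in all 6 of the chemokine promoters. Its first base lay 91 bases before the start site in CXCL8, 89 in CXCL6, 90 in CXCL5, 78 in CXCL1 and CXCL3, and 77 in CXCL2. The wider NF-kappaB consensus of 10 letters, which overlaps that motif, was in 5 of the 6 promoters and in 5.91% of all promoters. CXCL8 was the one without it, and its motif is preceded and followed by a T. CXCL8 was also the single member with the AP-1 letters TGANTCA (7.71% of all promoters, first base 137 before the start site) and with TATAAA (11.5% of all promoters). Placed without gaps, the windows of CXCL5 and CXCL6 were identical at 73 of 79 bases (92.4%), those of CXCL1 and CXCL3 at 73 of 80 (91.2%), and those of CXCL1 and CXCL2 at 60 of 79 (75.9%). CXCL8 matched the other five at 29.5% to 34.8% of bases. A match in letters is a description of the reference genome and not of binding in these cells.

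The 4 arrays do not pair by their labels, and this precedes every result. Over the 16469 genes tested (those well above background on 2 or more arrays), H1 had a Pearson correlation of 0.983 with R2, and H2 one of 0.975 with R1. Arrays of the same label had 0.847 and 0.833, and arrays of the same replicate number 0.844 and 0.856. These are correlations across genes, which are not independent replicates. Whether any arrays carry exchanged labels was not tested, and every HK-2 or RPTEC/TERT1 value below goes by the labels as deposited. Replicate 1 of both lines was scanned on one date and replicate 2 on another. The level of a probe is the log2 of its processed signal over the 75th percentile of its array (393 to 748 across arrays), so that 0 is the brightness of that percentile. Dim signals were set to a common floor of -5.37, a level at which each of the arrays could still tell a signal from background. Between 59.2% and 64.9% of the spots of an array were well above background. The median SD of repeated spots within an array was 0.084 to 0.14 on that log2 scale.

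Markers of the labelled cell type differed between the same arrays, in both directions. Of 9 epithelial and kidney tubule markers, 7 were well above background on all 4 arrays, while PAX2, a kidney transcription factor, and CDH1 (E-cadherin) were so on H1 and R2 alone. The summed level of the 9 was 6.78 and 6.87 on those arrays and 5.43 and 5.53 on H2 and R1. Between H1 and H2, 6 of the 9 were over 1 log2 unit higher on H1 (17.7% of all genes tested) and 1 lower (16.4%). Between R2 and R1, 5 were higher on R2 (22.1% of all genes) and 1 lower (18.4%). CDH2 (N-cadherin) was the lower one in both, with differences of -3.86 for H1 minus H2 and -4.24 for R2 minus R1. PAX2 and CDH1 are in both higher counts, but entered the test only through H1 and R2, so that their direction was fixed by the filter. Of 10 proximal tubule markers, CUBN, HNF4A and SLC22A6 were not well above background on any array, and the summed level was 1.29, 0.47, 0.34 and 1.38 on H1, H2, R1 and R2. Of the 6 of these tested, 1 was over 1 log2 unit higher on H1 than on H2 (ANPEP, well above background on H1 and R2 alone) and 1 lower (LRP2, at -3.34 on H1 and -1.72 on H2), with a median difference of -0.14. Between R2 and R1, 2 of the 6 were over 1 log2 unit higher on R2 and 0 lower, with a median of 0.71. The shares of all genes given above apply to these counts too. ANPEP is in both higher counts, and its direction was likewise fixed by the filter. The fibroblast markers DCN and LUM were well above background on H2 and R1 alone, PDGFRA, PDGFRB and COL3A1 on none, and the summed level of these 5 ran from -3.00 to 0.92. On H1 and R2 all 5 lay at or near the floor, so the low end of that range is set by the floor. Leukocyte markers (5 of 7 found, each well above background on at least 1 array) summed to between -0.87 and -0.27, and endothelial markers (4 of 4, KDR and VWF not well above background on any array) to between -2.35 and -1.34. The part of these markers in the values below was not tested. Fewer cells of a type and less RNA per cell cannot be told apart in these bulk samples.

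The 8 probes had levels of 4.74 to 7.49 on H1 and R2, and on H2 and R1 ran from 5.33 down to not detectable. Of the 32 readings (8 probes on 4 arrays), 5 were saturated, 4 were not well above background and 1 was marked as an outlier spot. All 8 probes were higher on H1 than on H2, and all 8 were higher on R2 than on R1. Folds below set 1 array against 1 array of the same label, with no test. Where the dim reading was not well above background or the bright one was saturated, the fold is a lower bound, with a dim reading not well above background set to the lowest signal well above background on its array, or kept at its own signal where that was higher.

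**Figure D1:**
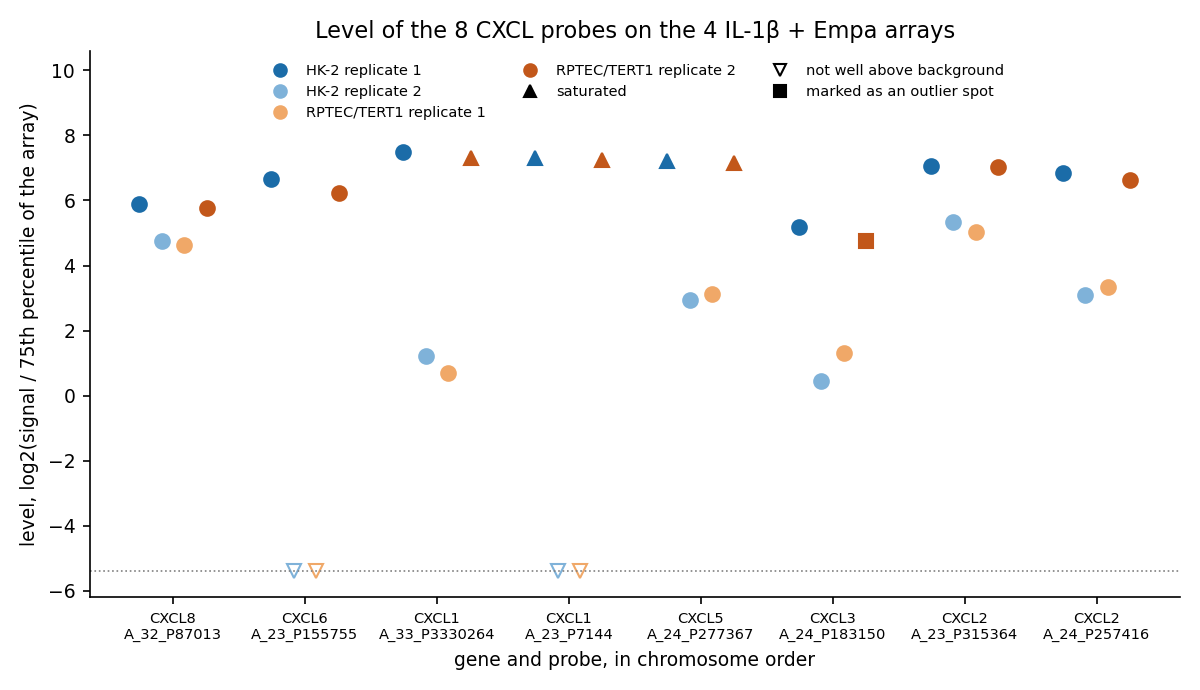
Level of each CXCL probe (log2 of processed signal over the 75th percentile of the array, y axis) on each of the 4 arrays, with probes along the x axis in chromosome order. Filled triangles are saturated, open triangles are not well above background and lie at the floor (dotted line, -5.37), and the square is an outlier spot. H1 and R2 lie above the other arrays for each of the 8 probes.

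CXCL8 (interleukin 8), which acts through both neutrophil receptors, had the smallest range over arrays of the 8 probes. Its single probe, A_32_P87013 on chromosome 4 from 74609265 to 74609324 (plus strand), gave a level of 5.88 on H1, 4.74 on H2, 4.62 on R1 and 5.76 on R2. All 4 readings were well above background, none was saturated, and the arrays of the 2 labels overlapped. After scaling, H1 was 2.20-fold above H2, and R2 was 2.20-fold above R1. Before scaling, the processed signal was 23141 on H1, 19988 on H2, 12010 on R1 and 23230 on R2. The fold in HK-2 thus rests largely on the 75th percentile each signal was divided by (393 on H1, 748 on H2). The deposited log2 values were 14.4, 14.0, 13.2 and 14.2 on H1, H2, R1 and R2.

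CXCL6 (granulocyte chemotactic protein), the other ligand of both receptors, was bright on one array of each label and below detection on the other. Probe A_23_P155755, from 74703368 to 74703427 (plus strand), had a level of 6.67 on H1 and 6.23 on R2, and was not well above background on H2 and R1. In processed signal these were 39985 and 32256 against 11.6 and 1.91. The fold was at least 6560 between H1 and H2 and at least 8363 between R2 and R1. No CXCL6 reading was saturated or marked as an outlier.

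CXCL1, a GRO chemokine that acts mainly through CXCR2, was read by a pair of probes that disagreed on the dim arrays. Probe A_23_P7144, from 74736850 to 74736909 (plus strand), was saturated on H1 (7.30) and R2 (7.25) and not well above background on the other arrays. Probe A_33_P3330264, from 74735646 to 74735705 on the same strand, had levels of 7.49, 1.22 and 0.71 on H1, H2 and R1, and was saturated on R2 (7.30). Its reading on H1 was not marked as saturated, although 28 of its 67 pixels were. Both probes were high on the same arrays and low on the same arrays. For A_23_P7144 the fold was at least 11467 between H1 and H2 and at least 16865 between R2 and R1. For A_33_P3330264 it was at least 77.2 and at least 96.7.

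CXCL2, also a GRO chemokine, differed less between arrays, and its probes disagreed on how much. Probe A_23_P315364, from 74962985 to 74963044 (minus strand), had levels of 7.05, 5.33, 5.03 and 7.03 on H1, H2, R1 and R2. Probe A_24_P257416, from 74964342 to 74964401 (minus strand), had 6.84, 3.09, 3.34 and 6.63 on the same arrays. Folds were 3.30 between H1 and H2 and 3.98 between R2 and R1 for the former, and 13.5 and 9.78 for the latter. On the bright arrays 3 of 64 and 5 of 66 pixels of A_23_P315364 were saturated, and none of A_24_P257416 was. How far this lowers the folds of A_23_P315364 was not tested. The probes lay further apart on H2 and R1, where neither had a saturated pixel, and the cause of their disagreement was not tested.

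Probe sequences bear on how far CXCL1, CXCL2 and CXCL3 can be told apart. The array design lists transcripts of both CXCL2 and CXCL3 for A_24_P257416, and transcripts of 1 gene for each of the other 7 probes. A_24_P257416 and the CXCL1 probe A_33_P3330264 share a stretch, identical at 32 of 37 bases. The first 30 bases of that stretch are printed 5′ to 3′ from the deposited probe column, with capitals at the 5 bases that differ, and the last line gives the first 30 of the 60 bases of the other CXCL1 probe for comparison.
A_24_P257416 (CXCL2), from base 24 of the probe: aagcttgTctcaaCccCgcatcGcccatGg
A_33_P3330264 (CXCL1), from base 1 of the probe: aagcttgCctcaaTccTgcatcCcccatAg
A_23_P7144 (CXCL1), from base 1 of the probe: catactgccttgtttaatggtagttttaca
No other pair among the 8 probes had such a stretch. The probes were compared only with one another and not with the transcripts, so the other probes were not cleared of binding a related transcript. The arrays hold no test of whether one of these probes also binds the transcript of the other gene, so the CXCL1 reading of A_33_P3330264 and the CXCL2 reading of A_24_P257416 remain uncertain.

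CXCL3, the remaining GRO chemokine, had levels of 5.19 on H1, 0.45 on H2, 1.31 on R1 and 4.74 on R2. Its probe is A_24_P183150, from 74902702 to 74902761 (minus strand), and its spot on R2 was marked as an outlier, so CXCL3 was left out of the fit. The fold was 26.7 between H1 and H2 and, with the outlier spot kept, 10.8 between R2 and R1.

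CXCL5 (epithelial neutrophil-activating peptide) was saturated at the top of its range. Probe A_24_P277367, from 74861898 to 74861957 (minus strand), had levels of 7.22 on H1 and 7.16 on R2, with every pixel saturated, and of 2.93 on H2 and 3.14 on R1. The fold was at least 19.5 between H1 and H2 and at least 16.2 between R2 and R1.

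Arrays of different labels and numbers lay close for each probe. H1 and R2 differed by 0.028 to 0.45 over the 8 probes, on the log2 scale, with the outlier spot and the saturated readings included. H2 and R1 differed by 0.12 to 0.86 over the 6 probes well above background on all 4 arrays. CXCL3 had the largest gap in both.

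The same differences were then set beside all genes. Of the 6 chemokines, 5 had a value on all 4 arrays and were tested (CXCL1 and CXCL2 as the mean of their probes). All 5 were over 1 log2 unit higher on H1 than on H2, against 17.7% of the 16469 genes, and all 5 were over 1 log2 unit higher on R2 than on R1, against 22.1%. CXCL6 entered the test only through H1 and R2, where it is high, so that its direction was fixed by the filter. Since the genes were also picked with these values known, nothing is read from those shares. The median difference of the 5 was at least 4.28 between H1 and H2 and at least 4.02 between R2 and R1, beside medians of 0.062 and 0.092 over all genes. Both medians are the values of CXCL5, which saturation caps, and the bounds hold for this scaling alone.

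**Figure D2:**
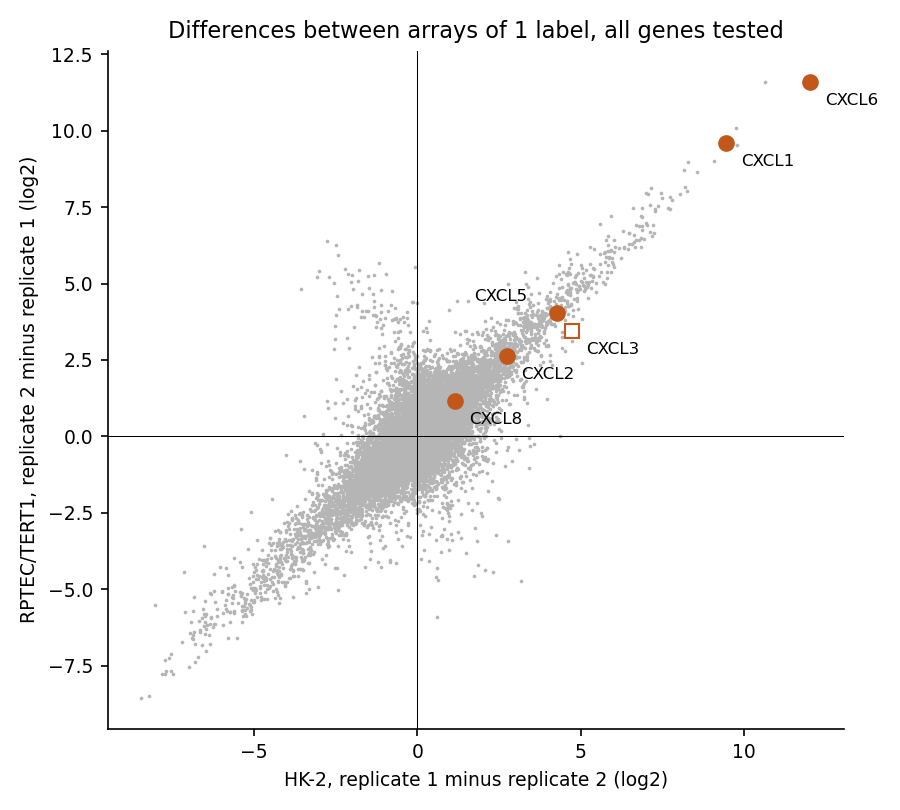
Difference in level between H1 and H2 (replicate 1 minus replicate 2, x axis, log2) and between R2 and R1 (replicate 2 minus replicate 1, y axis, log2). Grey points are the 16469 genes tested, filled circles the 5 chemokines tested and the open square CXCL3 with its outlier spot kept. The chemokines lie in the upper right, from CXCL8 at 1.14 on both axes to CXCL6 at 12.0 and 11.6.

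The comparison the labels allow is between the cell lines. None of the 5 chemokines differed between arrays labelled HK-2 and arrays labelled RPTEC/TERT1 beyond the spread between arrays of a label (limma with Benjamini-Hochberg adjustment, 0 of 16469 genes called, 0%, with 23 genes, 0.14%, at an unadjusted p under 0.05). The arrays of the labels overlapped for all 5, and did not overlap for 7.17% of the genes tested. CXCL1 had a mean level of 2.66 ± 6.70 (SD, n = 2) in HK-2 and 2.47 ± 6.79 (SD, n = 2) in RPTEC/TERT1 by label, a difference of 0.19 (standard error 4.63, adjusted p = 1 from limma). This mean takes in a probe at the floor, so it is not a bound. CXCL6 differed by 0.22 (standard error 5.74, adjusted p = 1 from limma), CXCL2 by 0.072 (1.37), CXCL5 by -0.071 (2.05) and CXCL8 by 0.12 (0.69). CXCL3, with its outlier spot kept, differed by -0.20 (standard error 2.05, adjusted p = 1 from limma). With errors of this size, an adjusted p of 1 does not show that the lines were alike.

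Within a replicate number, which is also a scan date, the sign of every chemokine turned. On the replicate 1 arrays, HK-2 minus RPTEC/TERT1 was 12.0 for CXCL6, 9.73 for CXCL1, 4.08 for CXCL5, 2.76 for CXCL2 and 1.26 for CXCL8. On the replicate 2 arrays it was -11.6, -9.35, -4.22, -2.62 and -1.02 in the same order. Each of these compares 1 array with 1 array and was not tested, and the signs of CXCL6 were fixed by the filter. The median over the 5, again the value of CXCL5, was 4.08 on replicate 1 and -4.22 on replicate 2, against 0.12 and -0.076 over all genes tested. CXCL5 was saturated on H1 and R2, so the sizes of these medians are lower bounds under this scaling. The values of CXCL1 take in saturated readings and a probe at the floor.

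**Figure D3:**
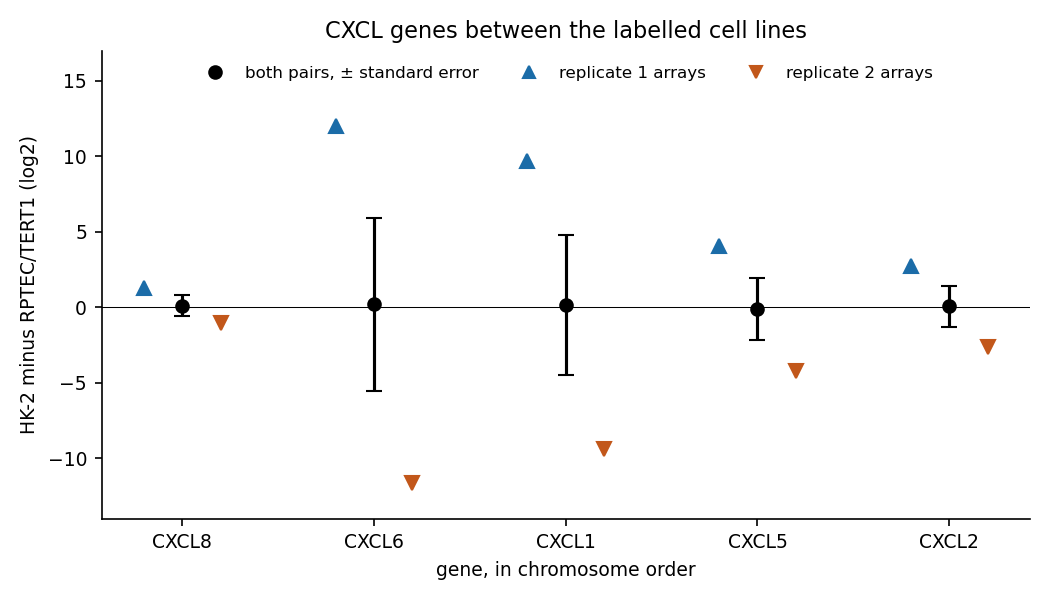
HK-2 minus RPTEC/TERT1 in level (y axis, log2) for the 5 chemokines tested, in chromosome order. Black points are limma differences over all 4 arrays with their standard errors, upward triangles the replicate 1 arrays and downward triangles the replicate 2 arrays. The black points lie between -0.071 and 0.22, and the triangles lie on opposite sides of 0 for each gene.

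Fewer of the other ligands of the family were detected. Of 11 other CXC ligands, CXCL9, CXCL10, CXCL11, CXCL13, CXCL17 and PF4V1 were not well above background on any array. CXCL9, CXCL10 and CXCL11 are the interferon-induced ligands of CXCR3, a receptor found on T cells. The remaining 5 were each over 1 log2 unit higher on H1 than on H2 and on R2 than on R1 (0 of 5 called between the labels by limma), as were 17.7% and 22.1% of all genes tested. CXCL14 and PPBP entered the test only through H1 and R2, where they are high, so that their direction was fixed by the filter. CXCL16, a membrane-bound ligand, had levels of 1.88, -1.82, -2.28 and 1.60 on H1, H2, R1 and R2. CXCL12, the ligand of CXCR4, had -1.82, -4.65, -5.04 and -2.35 on the same arrays. CXCL14, a ligand of epithelia, was at 1.69 on H1 and 2.55 on R2 and not well above background on the others.

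The receptors of the neutrophil-attracting ligands were not detectable. CXCR1 and CXCR2 were not well above background on any of the 4 arrays, nor were CXCR6 and the atypical receptors ACKR1 and ACKR3, 5 of the 8 receptors on the list. CXCR4 was at 1.84 on H1 and 1.56 on R2, and not well above background on H2 and R1. CXCR5 was well above background on those last arrays alone, at -2.94 and -3.44. CXCR3 was dim on all 4, from -3.00 to -1.98. Limma called 0 of the 3 receptors tested between the labels.

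The pathway known to drive these genes was detected on every array. Of 20 genes from the IL-1 receptor to NF-κB, 19 were well above background on all 4 arrays and only IL1R2, the decoy receptor, on none. Limma called 0 of the 19 between the labels. Between H1 and H2, 7 were over 1 log2 unit higher on H1 (17.7% of all genes tested) and 4 lower (16.4%). Between R2 and R1, 6 were over 1 log2 unit higher on R2 (22.1% of all genes) and 2 lower (18.4%). The median difference of the 19 was 0.58 between H1 and H2 and 0.20 between R2 and R1.

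Among the 13 of these 19 whose arrays spanned over 1 log2 unit, 8 lay the same way as the chemokines in both labels and 5 the other way. Over all genes tested, deviations from the label means had a correlation of 0.810 between arrays of crossed number. Agreement between the labels is thus array-wide, and nothing is read from that split. It counts signs of any size, and for MYD88 and TAB1 R2 minus R1 was within the highest SD of repeated spots. IL1R1, the signalling receptor for IL-1β, had levels of -1.24, -3.92, -4.48 and -1.31 on H1, H2, R1 and R2. NFKB1, which encodes the p50 subunit of NF-κB and is itself one of its targets, had 3.34, 1.18, 1.30 and 3.11. IRAK2, a kinase of the pathway, had 2.84, 0.78, 0.076 and 2.87. These were all higher on the arrays where the chemokines were high. Differences in the same direction were 1.89 between H1 and H2 and 1.58 between R2 and R1 for TOLLIP, 1.13 and 1.64 for IL1RN, the receptor antagonist, 1.17 and 0.66 for RELA, 1.52 and 0.14 for MYD88, and 0.63 and 1.12 for TRAF6. In the other direction, the level of IL1RAP, the co-receptor, was -2.83, -1.54, -1.10 and -2.56, and that of IRAK3, an inhibitor of the pathway, -3.54, -2.01, -1.89 and -3.90. IRAK1, TAB1 and TAB2 differed by -1.03, -1.14 and -0.98 between H1 and H2 and by -0.34, -0.068 and -0.49 between R2 and R1.

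Feedback and mRNA decay regulators of these transcripts lay in both directions. Between H1 and H2, 4 of the 10 were over 1 log2 unit higher on H1 (17.7% of all genes) and 2 lower (16.4%), and between R2 and R1, 5 were higher on R2 (22.1%) and 3 lower (18.4%). All 10 were above background on 2 arrays or more, and limma called 0 of them between the labels. KHSRP, in both lower counts, entered the test only through H2 and R1, where it is higher, so that its direction was fixed by the filter. TNFAIP3 (A20), a target and inhibitor of NF-κB, had levels of 1.81, -1.20, -1.95 and 1.74 on H1, H2, R1 and R2. ZC3H12A, a ribonuclease that cleaves inflammatory mRNAs, had 4.55, 2.58, 2.66 and 4.35. HNRNPD, an AU-rich element binding protein, had 1.33, 2.98, 3.23 and 1.44, and so lay opposite to the chemokines. The inhibitor NFKBIA differed by 1.08 between H1 and H2 and 1.39 between R2 and R1, and the decay factor ZFP36 by 1.16 and 1.35. Those values were 0.41 and 1.28 for ZFP36L1, and -0.32 and -1.57 for ELAVL1, which stabilises such mRNAs.

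Genes next to the chemokine cluster did not all follow it. PF4, a platelet chemokine whose gene lies inside the cluster, had levels of -1.37, -5.14, -3.93 and -1.60 on H1, H2, R1 and R2. PPBP, its neighbour, was at -2.35 on H1 and -2.82 on R2 and not well above background on the others. PF4V1, also inside, was not well above background on any array.

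Beyond the cluster, the epidermal growth factor ligands EREG and AREG lay the other way. EREG was at 2.34 on H2 and 2.32 on R1, and not well above background on H1 and R2. AREG had levels of -1.27, 2.42, 2.01 and -1.02 on H1, H2, R1 and R2. On the arrays where CXCL6 was not detectable, EREG was, and the reverse. EREG entered the test only through H2 and R1, where it is high, so that its direction was fixed by the filter. The same holds for CXCL6 and PPBP, which entered only through H1 and R2. RASSF6, on the far side of CXCL8, had -1.02, -2.37, -1.99 and -0.90, MTHFD2L had -3.71, -4.95, -5.03 and -3.63, and BTC, another ligand of the growth factor receptor, had -3.55, -4.03, -4.30 and -2.95. EPGN and PARM1 were not well above background on any array. Limma called 0 of the 7 neighbours tested between the labels.

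**Figure D4:**
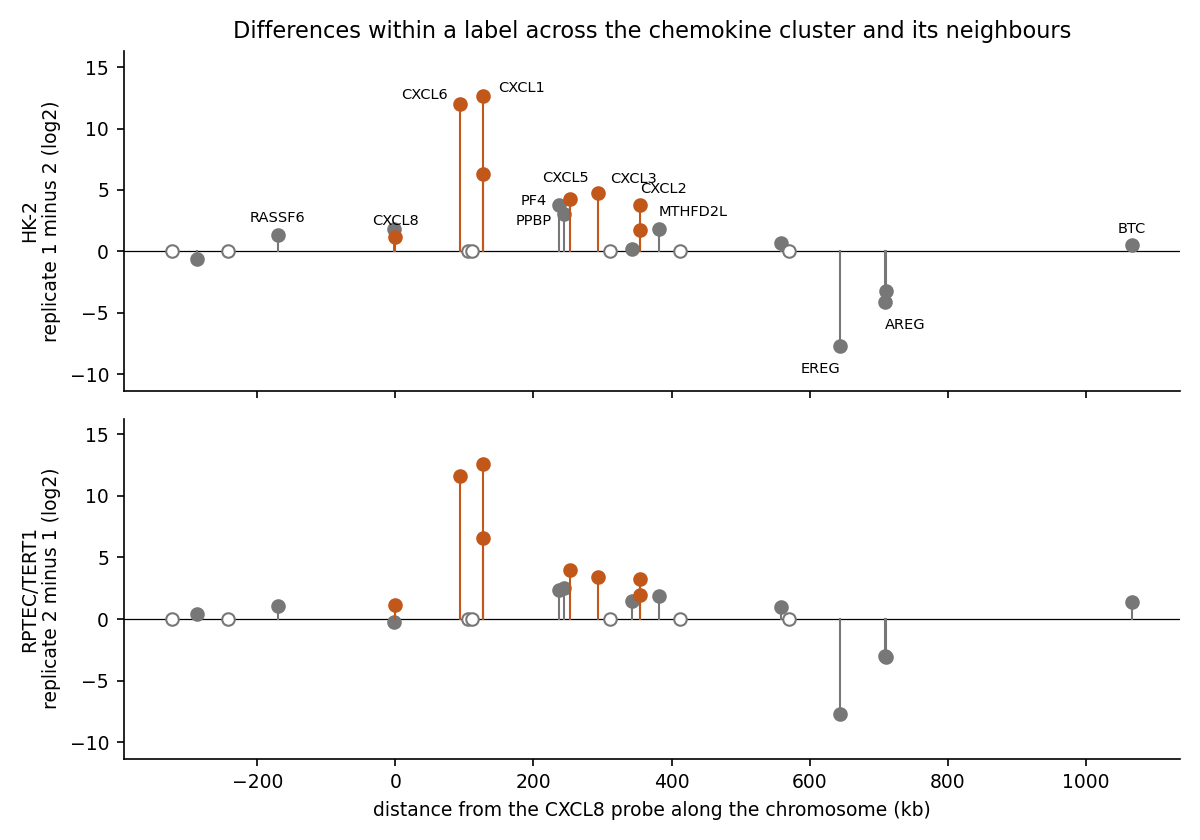
Differences between arrays of a label (y axes, log2) against the distance of each probe from the CXCL8 probe (x axis, kb), with H1 minus H2 above and R2 minus R1 below. Orange points are probes of the 6 chemokines, grey points other genes, and open points probes not well above background on any array. All 8 chemokine probes lie above 0 in both panels, while EREG and AREG lie below.

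A search by the root mean square difference from the median gene-centred level of the 5 chemokines tested ran over 4 arrays and 16469 genes, with Y-linked genes left out. That median is the profile of CXCL5, saturated on H1 and R2, so the genes found are those nearest to the capped readings of CXCL5 and not to CXCL8 or CXCL6, which differ far less and far more between arrays. They were TRIM2, a ubiquitin ligase (0.028), FOXQ1, a forkhead transcription factor (0.047), ANXA4, an annexin (0.057), C11orf52 (0.070) and MIR31HG, the host transcript of a microRNA (0.074). MIR31HG lay at the floor on H2 and R1, so its closeness to that profile depends on the floor. TRIM2 had levels of 0.97, -3.28, -3.15 and 0.90 on H1, H2, R1 and R2, and ANXA4 had 5.92, 1.63, 1.87 and 5.99.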

How the data were processed

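Gene expression was measured on 1-colour Agilent arrays of 2 labelled HPTC lines under IL-1β + Empa. The authors deposited, for each array, linear spot intensities from Feature Extraction 9.5.3.1, background subtracted and not scaled between arrays. Log2 values deposited beside them served as an alternative; how they were made is not stated in the sources read here. Arrays carry no read depth, and their number limits the precision. For RNA isolation the labels give RNeasy and the methods innuPREP.

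Controls and outlier spots were dropped. Each processed signal was taken relative to the 75th percentile of its array, with a floor at 0.0242 of that percentile, and converted to log2. Gene values average those probes that were well above background on 1 array or more. The labelled lines were compared with limma 3.58.1 in R 4.3.3 over 16469 genes well above background on 2 or more arrays (25666 genes had a value on all 4), with Benjamini-Hochberg adjustment at 0.05. The fit was also run on simulated data, whose spread between arrays of a label was set in advance and not taken from these arrays. That run does not show what the fit could find here. Named were each chemokine and its probes, list genes above background on all 4 arrays that spanned over 1 log2 unit, CXCR1, CXCR2 and cluster neighbours, other list genes where a count of 5 or fewer asked for it, and the 5 genes of most similar pattern. Marker sums are log2 of summed linear levels. FCGR3B and LYZ were not found under those names and were not used here. Some list genes are not reported here. The chemokines and the lists were chosen with earlier results of these data known. Deviations of same-numbered arrays from their label means had a correlation of -0.810, so the numbers were not taken to pair the arrays. Figures were drawn with matplotlib 3.10.9.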

Additional observations from a re-analysis of the deposited data

Results flagged for a closer look

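For each of the 5 chemokines tested, replicate 2 minus replicate 1 had opposite signs in the labelled lines. In HK-2 the difference was -9.47 for CXCL1, -2.74 for CXCL2, -4.28 for CXCL5, -12.0 for CXCL6 and -1.14 for CXCL8, on the log2 scale. In RPTEC/TERT1 it was 9.61 for CXCL1, 2.64 for CXCL2, 4.02 for CXCL5, 11.6 for CXCL6 and 1.14 for CXCL8. Each value sets 1 array against 1 array, and the difference between the lines was not tested. The signs of CXCL6 were fixed by the filter, which it passed only through H1 and R2. Saturation caps CXCL1 and CXCL5 on those arrays, and the floor limits CXCL1 and CXCL6 on the others.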

How the results depend on the processing

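Across 15 other settings, 4 of which drop an array, limma found 0 genes and 0 chemokines past the threshold between the labelled lines (3 to 241 genes at an unadjusted p under 0.05). With the replicate block it found 0, and 5 genes at an unadjusted p under 0.05. The crossed replicate block and the fit of each probe by itself were chosen after seeing the data. The crossed pairing called 0 genes (183 at an unadjusted p under 0.05), and the single probes 0 of 20807 (26).

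Most of the small differences between the lines turned sign with the background correction, and the cause was not tested. HK-2 minus RPTEC/TERT1 was -0.53 for CXCL1, -0.47 for CXCL2, -0.49 for CXCL6 and -0.38 for CXCL8 after normexp correction, where the median of all genes moved from 0.017 to 0.36, and CXCL5, below 0 in any case, went from -0.071 to -0.53. In the deposited log2 values it was -0.21 for CXCL1, -0.065 for CXCL2 and -0.13 for CXCL6, with a median of all genes of 0.21, and CXCL5 (-0.17) and CXCL8 (0.0048) kept their sign. With 1 array left out, the difference ran from -4.62 to 4.99 for CXCL1, -1.30 to 1.44 for CXCL2, -2.21 to 2.07 for CXCL5, -5.80 to 6.24 for CXCL6 and -0.45 to 0.69 for CXCL8, positive without H2 or R2 and negative without H1 or R1. The lone array is then assumed to vary like the others. Without probes that held a saturated spot, CXCL1 and CXCL5 left, and the median of the remaining 3 was 2.74 for H1 minus H2 and -2.64 for R1 minus R2. Saturation caps CXCL1 and CXCL5 from above, and the background limits CXCL1 and CXCL6 from below.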
